A study of Mus musculus with 4 samples.

Results

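Small-intestinal organoids on day 5 of culture were set against organoids on day 1, to describe how miRNA levels differed over culture time. The comparison uses 2 of the 4 arrays of a mouse study, 1 array for day 5 and 1 for day 1, and all 1897 miRNA probes kept from 1900. Both organoid samples were grown from crypts of murine small intestine, and the remaining arrays measured crypt epithelium and villus epithelium isolated from that organ. Strain, age, culture medium and number of animals are unstated in the labels. By the slide codes of the deposited arrays, day 5 was run on a slide of its own and the other 3 arrays shared another, so an effect of day 5 and an effect of that slide cannot be told apart. With 1 array a group there is no replicate check, no p-value was computed, and each value below describes these arrays.

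A miRNA is a short RNA that guides silencing complexes to messenger RNAs, mainly through its seed, the bases 2 to 8 from the 5′ end, and miRNAs with the same seed share most predicted targets. Intestinal organoids are spheres of epithelium that begin as single cells or crypts, and then grow buds that hold stem cells, Paneth cells and dividing progenitors, while absorptive and secretory cells mature toward the lumen. They contain epithelium without the muscle, connective tissue, vessels and immune cells of the gut wall. In this epithelium miR-192, miR-194 and miR-215 are abundant, the miR-200 family maintains epithelial identity by repressing Zeb1 and Zeb2, and the miR-17-92 cluster is linked to proliferating cells.

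The sequences below carry the differences described afterwards, from RefSeq (GRCm38.p6), which gave a mature sequence for 1612 of the 1897 probes. The first is miR-210-3p, the largest difference upward, from chr7:141221407-141221428 on the minus strand, with its seed in capitals:
miR-210-3p: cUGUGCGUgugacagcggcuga

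The next 6 share the seed AAAGUGC, in capitals, and were all higher on day 5. miR-17-5p (chr14:115043684-115043706, plus strand) and miR-20a-5p (chr14:115044183-115044205, plus strand) belong to the miR-17-92 cluster. miR-106a-5p and miR-20b-5p lie in the X-linked paralogous cluster, and miR-93-5p and miR-106b-5p lie within the span of Mcm7, a gene for a DNA replication helicase:
miR-17-5p: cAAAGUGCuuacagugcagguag
miR-20a-5p: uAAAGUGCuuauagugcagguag
miR-106a-5p: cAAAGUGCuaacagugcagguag
miR-20b-5p: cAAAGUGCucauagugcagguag
miR-93-5p: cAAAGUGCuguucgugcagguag
miR-106b-5p: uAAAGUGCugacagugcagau

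These 6 are near copies, and hybridization may be shared between their probes. With positions counted from 1 at the 5′ end, miR-17-5p and miR-106a-5p differ by U10A alone, and the other pairs differ at 2 to 5 aligned positions. The 6 values are therefore uncertain as separate measurements.

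The miR-200 members with the seed AAUACUG, again in capitals, formed the next highest seed group. miR-200b-3p and miR-429-3p come from chromosome 4 (chr4:156055685-156055706 for miR-200b-3p, minus strand) and miR-200c-3p from chromosome 6:
miR-200b-3p: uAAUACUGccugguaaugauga
miR-429-3p: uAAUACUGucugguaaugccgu
miR-200c-3p: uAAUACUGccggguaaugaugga

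On the lower side, the 7 following sequences each hold a run of 4 or more guanines, and here every guanine is in capitals. The largest difference of all, miR-6931-5p, maps to chr11:102999896-102999916 on the minus strand, within the span of Dcakd:
miR-6931-5p: uGGGGuGGGGaGuGGGGGacu
miR-6941-5p: cuGGGGGacuGacGGGuaGcu
miR-8113: caGGaGaGucaGGGGcaaGuaG
miR-5129-5p: auGuGGGGGcauuGGuauuuuc
miR-491-5p: aGuGGGGaacccuuccauGaGG
miR-6769b-5p: ccuGGuGGGuGGGGaaGaGc
miR-7036a-5p: aGcGGGGuucGGuGGGGaaGaGa

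The day 1 array was the brighter of the pair. Its Spike Control spots lay 16375 above the blank spots, 1.91 times the 8569 of the day 5 array, and the median miRNA spot read 75.5 on day 5 and 101 on day 1 in scanner intensity units. The detection limit, set at 2 SD above the mean blank spot of each array, was 70.5 on day 5 and 82.3 on day 1. By that limit 1359 miRNAs were detected on day 5 and 1555 on day 1, with 1346 on both arrays and 1568 on at least 1. Levels below are log2 intensities after quantile normalization over the 4 arrays, which removes the difference in brightness between arrays. Over 5 bright control probes with 8 spots each, the SD of a log2 difference between single spots of the arrays was 0.14 (range 0.11 to 0.14). It covers error from spot to spot only, not that between cultures.

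Most miRNAs differed little in the main setting, where an offset added before the log2 step shrinks the differences of dim probes. Of the 1346 detected on both arrays, 1274 (94.7%) lay within 1.5-fold, and the SD of the log2 differences was 0.28 around a median of 0.01. At 2-fold, 5 of the 1568 were higher on day 5 (0.319%) and 14 were lower (0.893%). At 1.5-fold, a threshold added after the data had been seen, 37 were higher (2.36%) and 35 lower (2.23%). The same SD was 0.61 between villus and crypt, 0.61 between day 5 organoids and crypt and 0.76 between day 1 organoids and crypt. The organoid SD was the smallest of the 6 pairs of arrays in this setting. The split of the 2-fold differences depended on the scaling: scaling to the median gave 0.0638% higher and 3.95% lower, and Spike Control scaling gave 0.957% higher and 19.3% lower. Their number depended on the background correction too. With the blank mean subtracted and no offset, the SD was 0.60, with 6.25% at least 2-fold higher and 3.89% lower.

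**Figure D1:**
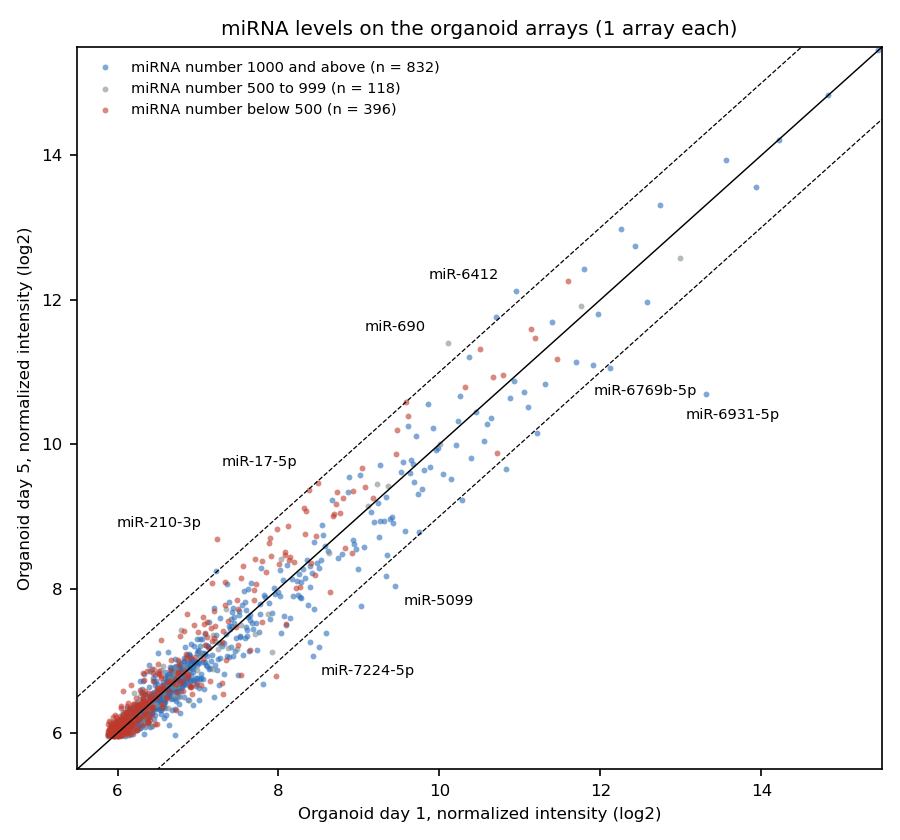
Normalized intensity (log2) of the 1346 miRNAs detected on both organoid arrays, with day 5 on the vertical and day 1 on the horizontal axis, coloured by miRNA number; dashed lines mark 2-fold. Points follow the diagonal, with miR-210-3p above the upper line and miR-6931-5p far below the lower line.

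miR-210-3p, the miRNA most strongly induced by the hypoxia-inducible transcription factors, showed the largest difference upward. Its spot read 322.7 on day 5 and 218.2 on day 1, although the day 5 array was the dimmer, and it read 76 on the crypt array and 154.6 on the villus array. After normalization its log2 level was 8.68 on day 5, 7.23 on day 1, 6.47 in crypt and 6.33 in villus, so day 5 was the highest of the 4 and day 1 came next. The difference between day 5 and day 1 was 1.45 on the log2 scale, a 2.73-fold higher level. Relative to the median of all miRNAs it ranged from 1.12 to 2.28 over 10 other scalings and background corrections, and it was the only one of the 5 above 2-fold in all 10. In bulk samples such as these, fewer cells of a type and less RNA per cell cannot be told apart.

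The other members of the stress and injury list did not share that size of difference. Of its 12 miRNAs, 8 were detected on both arrays, and miR-210-3p was the only one past 1.5-fold. miR-21a-5p, which is raised in injured and inflamed gut, had a level of 10.93 on day 5 and 10.66 on day 1. miR-31-5p, which promotes epithelial regeneration in mouse intestine, had 8.56 on day 5 and 8.83 on day 1. miR-22-3p differed by -0.25, miR-34a-5p, a p53 target, by 0.35, and miR-221-3p, a repressor of the cell-cycle inhibitor p27, by 0.57. The members thus lay on either side of zero, and the list median was 0.22, against 0.01 over all miRNAs detected on both arrays. Over the 396 of these numbered below 500, as the list members are, the median was 0.08. It was 0.21 over the 164 of them above the median level, close to that of the list.

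The seed group AAAGUGC had the highest median of the 25 seed groups with at least 3 detected members. All 6 members were at least 1.5-fold higher on day 5, from 0.70 for miR-93-5p to 0.99 for miR-20a-5p, with a median of 0.82, although none reached 2-fold. miR-20a-5p had a level of 9.37 on day 5, 8.38 on day 1, 10.66 in crypt and 8.92 in villus. miR-17-5p, which represses cell-cycle inhibitors, had 9.47 on day 5, 8.49 on day 1, 10.93 in crypt and 8.94 in villus. Both were therefore highest in crypt, with day 5 next and day 1 lowest.

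Before normalization the spots of miR-17-5p read 518 on day 5 and 528 on day 1, and those of miR-20a-5p 483 on day 5 and 481 on day 1, so the difference arises relative to the rest of each array. The seed group's median lay between 0.44 and 1.39 in the 10 other settings. miR-20a-5p was the only one of the 6 to go below 0 in any of them: with the column named as background subtracted it had -0.56, whereas miR-17-5p had 1.62 in that setting.

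The miR-17-92 cluster, transcribed as 1 RNA and activated by Myc, was higher in the same direction. Of its 10 miRNAs on the array 9 were detected on both arrays, all 9 above 0, and 4 of them past 1.5-fold, with a median of 0.55. miR-18a-5p had a level of 7.65 on day 5 and 6.86 on day 1, and miR-19b-3p had 9.07 on day 5 and 8.35 on day 1. miR-19a-3p differed by 0.55 and miR-92a-3p by 0.22, so the values of the members were not equal. miR-19b-3p and miR-92a-3p each have 2 loci, so their probes do not read this transcript alone.

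The paralogous clusters gave 7 of 9 miRNAs detected on both arrays, all 7 above 0, 4 past 1.5-fold, with a median of 0.70. miR-106a-5p had 8.83 on day 5 and 7.99 on day 1, and miR-106b-5p had 8.09 on day 5 and 7.34 on day 1. miR-25-3p, which has another seed than miR-93-5p and miR-106b-5p of the same cluster, differed by 0.36. Both list medians stayed above 0 in all 10 settings, lowest with the column named as background subtracted for the cluster (0.17) and with scaling to the median or 75th percentile for the paralogs (0.33). Over all miRNAs, 699 of 1346 lay above 0, and among those numbered below 500, 279 of 396 did.

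**Figure D2:**
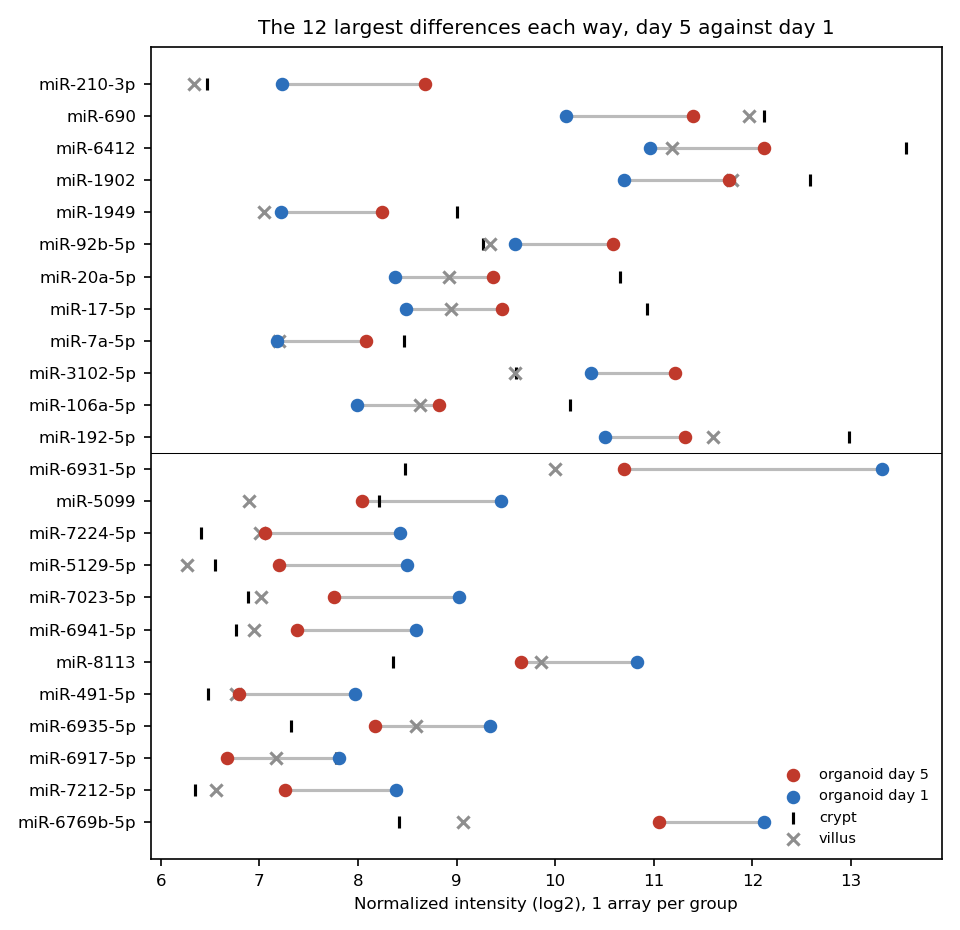
Normalized intensity (log2) on each of the 4 arrays for the 12 miRNAs with the largest differences upward (top) and downward (bottom) among those detected on both organoid arrays, with day 5 in red and day 1 in blue and 1 array per group. In 9 of the 12 at the top the crypt mark lies above day 5. In all 12 at the bottom it lies below day 1, which choosing them for a high day 1 level favours.

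The remaining miRNAs at least 2-fold higher on day 5 were miR-690, miR-6412, miR-1902 and miR-1949. miR-690 had a level of 11.40 on day 5, 10.11 on day 1, 12.12 in crypt and 11.97 in villus, and miR-6412 had 12.12 on day 5, 10.96 on day 1, 13.56 in crypt and 11.18 in villus. miR-1902 differed by 1.06 and miR-1949 by 1.03, which is just inside 2-fold, and miR-92b-5p lay just outside it at 1.00. All 4 were higher in crypt than on day 5.

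Their size depended on the setting. miR-690 ranged from 0.43 to 1.42 relative to the median of all miRNAs and miR-1949 from 0.57 to 1.66, and both stayed above 0. miR-1902 had -0.04 with scaling to the median or the 75th percentile, and miR-6412 had -1.33 and miR-92b-5p -1.91 with the column named as background subtracted.

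The miR-192, miR-194 and miR-215 group, which HNF transcription factors drive in intestinal epithelium, had 7 of 7 members detected on both arrays. miR-192-5p had a level of 11.32 on day 5, 10.51 on day 1, 12.98 in crypt and 11.60 in villus, and miR-194-5p had 12.26 on day 5 and 11.60 on day 1. These 2 were past 1.5-fold, while miR-215-5p, almost the same in sequence as miR-192-5p, differed by 0.17. miR-215-3p, the opposite strand of that precursor, differed by -0.50, and the list median was 0.10. The median was below 0 in 3 of the 10 settings, at -0.19 with scaling to the median or the 75th percentile and -0.10 with the column named as background subtracted, and miR-192-5p had -0.04 in both of those scalings.

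In the miR-200 family 9 of 10 strands were detected on both arrays, 8 of them above 0, and 3 were at least 1.5-fold higher on day 5. Those 3, miR-200a-3p (0.73), miR-200b-3p (0.78) and miR-429-3p (0.80), come from the chromosome 4 cluster. The chromosome 6 cluster gave 0.34 for miR-200c-3p and 0.33 for miR-141-3p. miR-200b-3p had a level of 10.39 on day 5, 9.61 on day 1, 11.76 in crypt and 10.51 in villus. The family median of 0.33 stayed above 0 in all 10 settings, from 0.13 to 0.72, whereas 4 single members were below 0 in at least 1 setting, with lowest values of -0.78 for miR-141-3p, -0.47 for miR-200c-5p, -0.17 for miR-200c-3p and -0.11 for miR-429-3p.

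let-7 miRNAs, which accumulate as cells differentiate and are held back by Lin28, were all above 0. The 9 members ranged from 0.25 for let-7b-5p to 0.62 for let-7f-5p, with let-7f-5p and let-7i-5p past 1.5-fold and a median of 0.42. let-7f-5p had a level of 9.34 on day 5, 8.72 on day 1 and 11.18 in crypt. With scaling to the median or the 75th percentile the family median was -0.01, so its sign changed with the scaling. The members differ from each other at few bases, and their probes may share signal.

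Other families of broadly expressed miRNAs had positive medians too, as did miRNAs numbered below 500 in general. Of the 396 such miRNAs detected on both arrays, 279 lay above 0, with a median of 0.08. The median was 0.21 over the 164 of them above the median level, so medians near that value are not particular to a family. All 7 miR-30 members were above 0 (median 0.23) with none past 1.5-fold. The miR-29 family, repressors of collagen genes, had a median of 0.33, with miR-29b-3p at 0.75. The clusters of miR-23, miR-27 and miR-24 had 0.29, with miR-24-3p at 0.74, and the miR-15 and miR-16 family, which restrains cell-cycle entry, had 0.22, with miR-16-5p at 0.63. The miR-183 cluster, known from sensory organs, had a median of 0.59 over 3 members: miR-96-5p differed by 0.75 and miR-182-5p by 0.59, but miR-183-5p by 0.14. With scaling to the median or the 75th percentile, the medians of the miR-30 family (-0.08), the miR-29 family (-0.10) and the clusters of miR-23, miR-27 and miR-24 (-0.08) were below 0. With the column named as background subtracted, the miR-183 cluster had -0.14 and the miR-30 family -0.02.

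**Figure D3:**
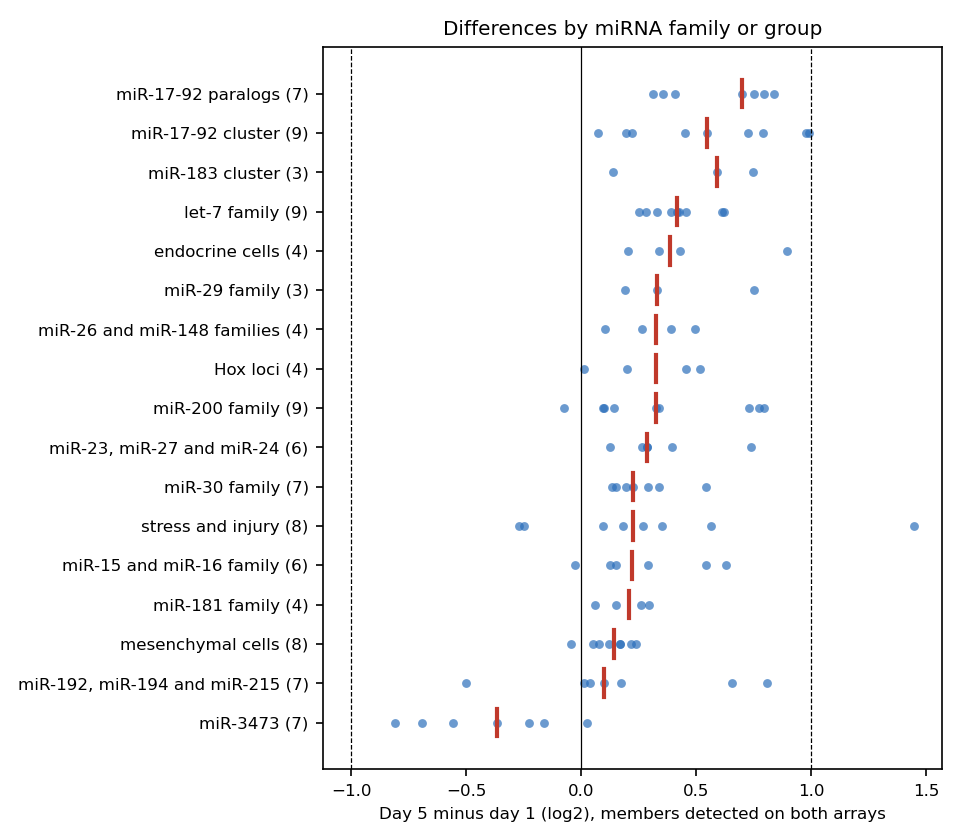
Day 5 minus day 1 differences (log2) of the members detected on both organoid arrays for 17 miRNA groups, with a red bar at each group's median and the number of members in brackets; dashed lines mark 2-fold. The medians of the miR-17-92 paralogs (0.70), the miR-183 cluster (0.59) and the miR-17-92 cluster (0.55) lie farthest to the right, miR-210-3p is the only point beyond 2-fold, and miR-3473 has a median below 0.

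Endocrine cells of the gut express miR-375 and miR-7. All 4 probes of this list were above 0, with a median of 0.39. miR-7a-5p had a level of 8.08 on day 5, 7.18 on day 1 and 8.47 in crypt, a difference of 0.90 that stayed between 0.47 and 1.44 in the other settings. miR-375-3p, which is highest in endocrine cells but also present in other epithelium, differed by 0.34.

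Several markers of cells outside the epithelium were low on both organoid arrays. miR-143-3p, of smooth muscle and fibroblasts, read 70 on day 5 and 92 on day 1, against 11915 on the villus array. miR-145a-5p read 69 on day 5 and 89 on day 1. Of 13 mesenchymal miRNAs 8 were nevertheless detected on both arrays with a median difference of 0.14. Among these 8 were miR-125b-5p, miR-199a-5p, miR-214-3p, miR-218-5p and miR-140-3p, whose spot intensities are not given here. miR-142a-3p, the leukocyte marker, read 72 on day 5 and 85 on day 1, and miR-126a-3p of endothelium 72 on day 5 and 89 on day 1, both within a few units of the detection limits. The hepatic and pancreatic miRNAs miR-122-5p, miR-216a-5p and miR-217-5p were below the limit on day 5 and only just above it on day 1. No marker of these lists passed 1.5-fold. Both samples thus had bright miR-192-5p, miR-194-5p, miR-215-5p and miR-200b-3p probes, while the markers of other cell types were mixed. Some read near the limit, but 8 of 13 mesenchymal, 3 of 6 leukocyte and 2 of 4 red blood cell miRNAs were detected on both arrays. The share of other cell types in the samples was not tested.

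Among the miRNAs lower on day 5, miR-6931-5p stood apart. Its spot read 1187 on day 5 and 16920 on day 1, against 170 in crypt and 2485 in villus. Its log2 level was 10.70 on day 5, 13.31 on day 1 and 8.47 in crypt, and day 1 was the highest. The difference was -2.61, 6.12-fold lower on day 5, and between -3.45 and -2.50 in the 10 other settings.

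Next came miR-5099, whose level was 8.04 on day 5 and 9.45 on day 1, a difference of -1.41. miR-7224-5p had 7.06 on day 5 and 8.43 on day 1, and miR-5129-5p had 7.19 on day 5 and 8.50 on day 1. The others at least 2-fold lower were miR-7023-5p (-1.27), miR-6941-5p (-1.21), miR-8113 (-1.18), miR-491-5p (-1.18), miR-6935-5p (-1.17), miR-6917-5p (-1.13), miR-7212-5p (-1.13), miR-6769b-5p (-1.06), miR-7036a-5p (-1.06) and miR-8099 (-1.05). miR-7036a-5p and miR-8099 come after the 12 largest and are named because their values passed 2-fold. miR-8099 is just inside that threshold, and miR-6914-5p just outside it at -0.96.

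Of these 14, 12 kept their sign in all 10 settings, some of which coincide, and 6 were at least 2-fold lower in every one. The exceptions were miR-6769b-5p (0.83) and miR-7036a-5p (1.06) with the column named as background subtracted. All 14 were lower in crypt than on day 1, which choosing them for a high day 1 level favours. In crypt 12 were also lower than on day 5. The shares over all miRNAs are not given here, so no conclusion is drawn from these counts.

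**Figure D4:**
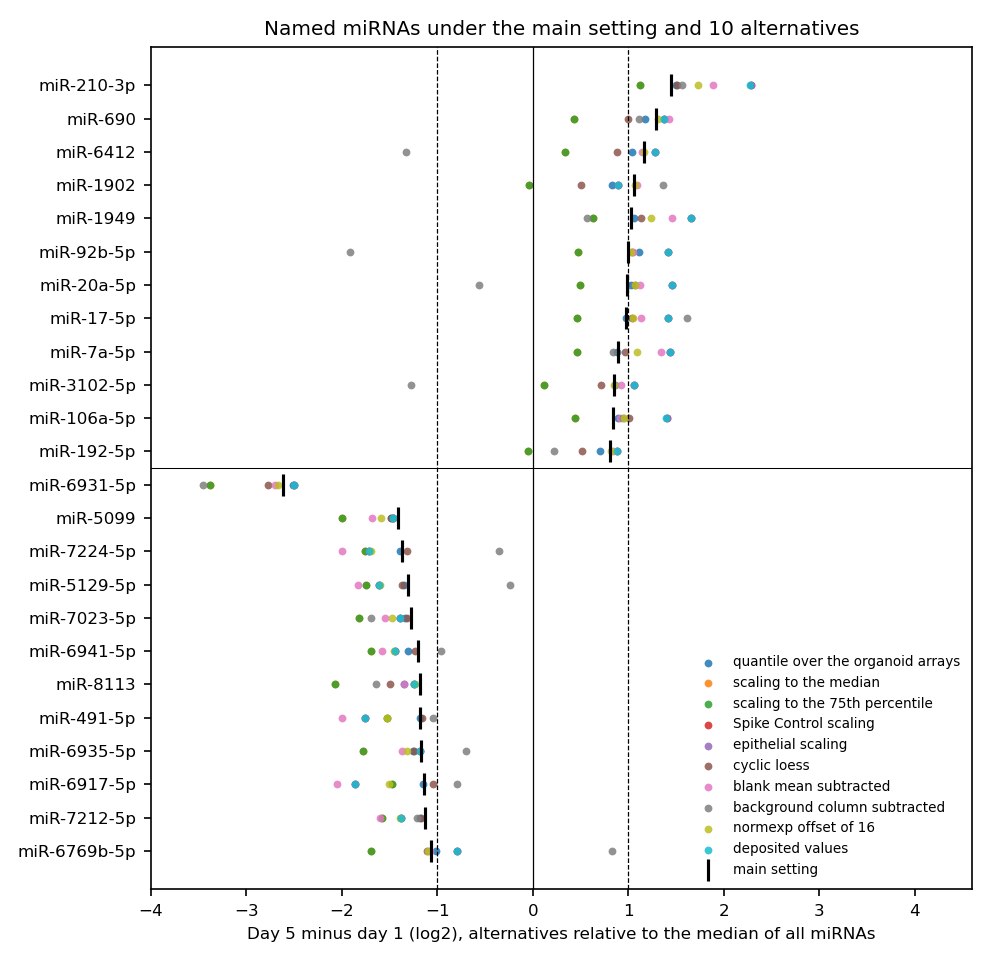
Day 5 minus day 1 difference (log2) of the 12 largest differences each way, with the main setting as a black bar and 10 other scalings and background corrections as points, each relative to the median of all miRNAs in that setting; scalings by a single factor coincide where they share a background correction. miR-210-3p and miR-6931-5p stay beyond 2-fold in every setting, while others, among them miR-6412, miR-92b-5p and miR-6769b-5p, cross zero with the background column subtracted.

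The miRNAs lower on day 5 were mostly of high number, whereas those higher differed from the background in number only at 1.5-fold. A miRNA number records the order of naming, and many numbers from 1000 up rest on few sequencing reads. Of the 14 at least 2-fold lower, 13 had such a number and 11 were 5p strands, against 832 and 560 of the 1346 detected on both arrays (61.8% and 41.6%). miR-491-5p was the only one numbered below 500. Of the 5 at least 2-fold higher, 3 were numbered 1000 or above (60%), near the share over all, and 1 was numbered below 500. At 1.5-fold, 28 of 35 lower miRNAs were numbered 1000 or above (80%), whereas 24 of 37 higher ones were numbered below 500 (64.9%). Over all 1346, 832 were numbered 1000 or above (61.8%) and 396 below 500 (29.4%). Among miRNAs above the median level, the median difference was 0.21 for the 164 numbered below 500 and -0.03 for the 461 numbered 1000 or above. These classes differ in level and in base composition as well.

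The lower miRNAs were also rich in guanine. Of the 14, 9 had a RefSeq sequence, with a median guanine content of 45.5%, and 7 of the 9 (77.8%) held GGGG, searched as these letters in the mature strand. Of the 27 sequences at least 1.5-fold lower 15 held it (55.6%), of the 35 at least 1.5-fold higher 4 (11.4%), and of all 1151 with a sequence 167 (14.5%). No miRNA with at most 18.2% guanine was at least 1.5-fold lower, whereas 15 of the 260 with 41.7% or more were. Across the 1151 miRNAs the correlation of guanine content with the day 5 minus day 1 difference was -0.205 (Spearman -0.206), over probes that share both arrays and the normalization. Scaling to the median made it -0.382, and subtracting the background column made it -0.0241.

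A control probe, Negative Control 3, was also dimmer on day 5, and so were other dim probes outside the miRNAs. Above the blank spots, its day 5 to day 1 ratio was 0.34. The dim S-Probes with 8 spots had 0.31 (S-Probe7), 0.36 (S-Probe24), 0.39 (S-Probe2), 0.48 (S-Probe6) and 0.53 (S-Probe1). The drop was therefore not particular to Negative Control 3. It lay 9.85 above the blank spots on day 5 and 28.8 on day 1, 2.92 times more on day 1, where the Spike Control spots were 1.91 times brighter. It was 2.18 above the blank spots in crypt and 17.7 in villus, and Negative Control 1 and 2 were below the detection limit on both organoid arrays. The part of unspecific binding in the values of the lower miRNAs was not tested.

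**Figure D5:**
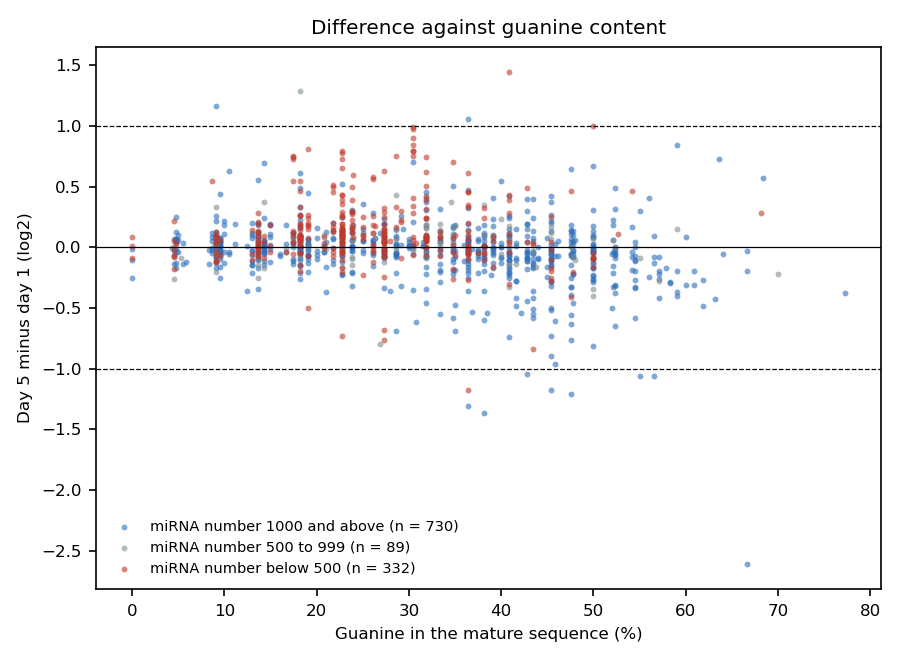
Day 5 minus day 1 difference (log2) against the guanine content (%) of the mature sequence for the 1151 miRNAs detected on both organoid arrays that have a RefSeq sequence, coloured by miRNA number; dashed lines mark 2-fold. The differences below -1 lie at guanine contents above 36%, and miR-6931-5p is the lowest point.

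Families within the higher numbers varied. In the miR-3473 group, 6 of 7 members were below 0, with a median of -0.36, and miR-3473b (-0.81) and miR-3473f (-0.69) were past 1.5-fold. miR-3473b and miR-3473e differ only at their 3′ ends, and miR-3473a shares most of its bases with both. Probes of this group may therefore share signal. The group median was below 0 in all 10 settings, from -1.04 with scaling to the median to -0.30 with the Spike Control scaling. The range from miR-6896 to miR-7094 holds many mirtron-like miRNAs, cut from short introns. Of its 201 5p strands 179 were detected on both arrays, with a median of -0.08. Of these 179, 129 were below 0 and 12 at least 1.5-fold lower. Over all 1346 miRNAs detected on both arrays, 638 were below 0 and 35 at least 1.5-fold lower. The 3p strands of this range had none past 1.5-fold among 171 and a median of -0.00.

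The Sfmbt2 locus encodes an array of miR-297, miR-466, miR-467 and miR-669 copies. Of its 70 probes, 43 were detected on both arrays, 37 of them below 0, against 638 of 1346 over all miRNAs. The locus median was -0.15, and it was below 0 in all 10 settings. Only the probe shared by miR-466m-5p and miR-669m-5p was past 1.5-fold, at -0.61. miRNAs of the imprinted Dlk1-Dio3 locus, active in embryonic and neural tissue, were detected on both arrays for 20 of 38 probes and had a median of 0.03, with none past 1.5-fold.

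Among other lower miRNAs with a known role, miR-203-3p, which drives differentiation of stratified epithelia, had a level of 7.96 on day 5, 8.64 on day 1, 9.38 in crypt and 8.33 in villus. It was chosen after its value was seen. The difference of -0.68 lay between -1.88 and -0.64 in the other settings, so it kept its sign.

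For the miRNAs detected on a single organoid array only a bound can be given. There were 13 on day 5 only and 209 on day 1 only. The largest bounds were miR-3970 and miR-147-3p, at least 0.17 and 0.16 higher on day 5 on the log2 scale, and miR-3098-5p and miR-764-3p, at least 0.28 and 0.27 lower. No bound reached 1.5-fold, and miRNAs detected on neither array have no difference.

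The differences with culture time were set beside those between villus and crypt, which use the other arrays. Over the 1148 miRNAs detected on all 4 arrays the Pearson correlation of day 5 minus day 1 with villus minus crypt was -0.392, so miRNAs higher on day 5 tended to be higher in crypt than in villus. miR-17-5p, higher on day 5, had 8.94 in villus and 10.93 in crypt. miR-210-3p was an exception, with nearly equal levels of 6.33 in villus and 6.47 in crypt. The correlation was 0.225 with the column named as background subtracted and between -0.548 and -0.202 in the other settings, and the 2 differences share the quantile normalization and each probe's sequence. Day 5 and crypt were also the dimmer array of each pair. Spike Control spots lay 8569 above the blank spots on day 5 and 8527 in crypt, against 16375 on day 1 and 28298 in villus. The part of array brightness in this correlation was not tested.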

How the data were processed

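Total RNA was labelled with Cy5 per the labels' protocols and hybridized to 1-colour arrays of 3200 spots. The deposited scanner tables give spot intensity at 635 nm, combined from 3 gains per the file headers; the labels name neither array maker nor scanner. The authors' processed table, also deposited as linear intensities, served as an alternative. Spot intensities were corrected with normexp (offset 50, limma 3.58.1, R 4.3.3), log2 transformed and then quantile normalized across 4 arrays; the offset shrinks differences of dim probes. The column named as background followed spot brightness and was used only as an alternative. Detection used the mean plus 2 SD of 896 blank spots, trimmed by 5% at each end; 3 marked miRNA spots were left out. Scripts were tested on simulated data.

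Each group had 1 array, so no test was run. Named miRNAs are the 12 largest differences and 6 largest bounds each way and the members of 28 lists; those, the part and the tests were chosen with earlier results of these data known. In 10 alternatives, values are relative to the median of all miRNAs, so scalings by a single factor coincide where they share a background correction. Stricter detection, detection on all 4 arrays and a 1.5-fold threshold were also tried. The number of arrays limits precision. Sequences were matched by name to RefSeq.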

Additional observations from a re-analysis of the deposited data

Results flagged for a closer look

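Outside the miRNA probes, 18 of the 22 S-Probes with a single spot lay above the detection limit on both organoid arrays, a signal in probes that no comparison above uses. The brightest read 2346 on day 5 and 4693 on day 1. The labels do not say what these probes target.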

How the results depend on the processing

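Under other scalings the median of all day 5 minus day 1 differences, 0.01 in the main setting, became -0.11 (median), 0.20 (75th percentile), -0.48 (Spike Control), -0.87 (8 epithelial miRNAs) and -0.28 (deposited values). The share of miRNAs at least 2-fold higher and lower, 0.319% and 0.893% of 1568, was 0.0638% and 3.95% under median scaling, 0.0638% and 1.85% under that to the 75th percentile, 0.957% and 19.3% under Spike Control scaling, and 2.81% and 12.7% with deposited values. It was 6.25% and 3.89% with the blank mean subtracted and 1.66% both ways with the background column. Epithelial scaling gave 43.0% lower, an offset of 16 gave 0.702% higher, and a 1.5-fold threshold, added after seeing the data, gave 2.36% and 2.23%. The SD of 0.28 became 0.62 with Spike Control, epithelial scaling and deposited values and 0.60 with the blank mean subtracted. The correlation with villus minus crypt was -0.548 with the median and 75th percentile, -0.202 with cyclic loess and, reversed, 0.225 with the background column; quantile normalization over the organoid arrays gives no such value. The correlation with guanine was -0.382 with the median and 75th percentile, -0.0824 with Spike Control and epithelial scaling, -0.0827 with deposited values and -0.0241 with the background column. Of 27 lists 23 had a median above 0, and 13 with the background column. Of 1670 values of single miRNAs 820 moved by less than the spread between spots, 845 moved more and 5, of miRNAs past 2-fold in the main setting, reversed: miR-1902 (-0.0394 with the median and 75th percentile) and, with the background column, miR-6412 (-1.33), miR-6769b-5p (0.83) and miR-7036a-5p (1.06). Of 324 list medians 151 moved and 1, of lists with a main median past 1.5-fold, reversed, the miR-183 cluster at -0.14 with the background column. Counting values of any size, 76 of the miRNAs and 17 of the lists had the opposite sign in at least 1 alternative. The cause was not tested. No paired analysis was possible because each group had 1 array. Probes near the blank spots limit what could be seen.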
